A study of Mus musculus with 12 samples.

Results

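The nuclear genes for subunits of respiratory complexes II to V were examined in mouse liver RNA. They were chosen by symbol alone: Sdha, Sdhb, Sdhc and Sdhd for complex II, Cyc1 and all Uqcr genes for complex III, the Cox4 to Cox8 genes for complex IV, and the Atp5 genes for complex V with Atp5sl left out. This gave 47 of the 24411 genes in the table, 4 for complex II, 9 for complex III, 18 for complex IV and 16 for complex V. After the filter on low counts, 42 of the 47 were among the 13922 genes tested. The 5 untested genes were all tissue-restricted isoforms of complex IV: Cox4i2 had 2 to 10 counts per mouse, Cox6a2 had 0 to 10, Cox8b had 0 to 7, Cox8c had 0 to 2, and Cox7b2 had 0 in all 9 mice. In these libraries 3 counts, the level that a count of 0 still allows, correspond to 0.123 to 0.329 normalized CPM (counts scaled to library size).

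The genotypes were compared at 3 months of age, with 3 mice each. Cont. mice were Atg7 flox/flox. Atg7-KO mice (KO below) were also Alb-Cre positive. Atg7-KO;p62 T352A mice (KO;T352A below) had in addition the T352A exchange in p62 and were homozygous for it. All 9 mice carried the floxed Atg7 alleles. The albumin promoter of Alb-Cre directs deletion to hepatocytes, and deletion in other liver cells was not measured here. The p62 exchange sits in the endogenous Sqstm1 gene and is present in every cell, and was made by prime editing in C57BL/6N embryonic stem cells. Mice with the p62 exchange and no Cre were not analysed here. The sample labels name a column kit (RNeasy) for the RNA, whereas the methods of the study name TRIzol.

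Atg7 itself, counted over the gene and not over the deleted part alone, was 48.7 ± 5.94 CPM (SD, n = 3) in cont., 10.6 ± 1.27 in KO and 28.9 ± 1.28 in KO;T352A. The KO;T352A mice thus had 59.3% of the cont. mean and the KO mice 21.7%. Between the 2 Cre genotypes the log2 fold change was 1.45 ± 0.17 (SE), with an adjusted p of 0.0001638 in edgeR's quasi-likelihood test with Benjamini-Hochberg adjustment. Both carry the same deletion by label, and the part of this difference in the results below was not tested.

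The libraries held 9671073 to 23285134 counts. Cont. mouse 1, the deepest library, stood apart from the other 8 on the second principal component, and the mice numbered 1 had 7 to 28 counts of Xist against 8578 to 18335 in the others. The share of counts held by the 20 most abundant genes was 12.7% to 13.4% in KO, 19.7% to 27.7% in cont. and 21.8% to 24.99% in KO;T352A mice. Scaling factors (TMM) were 1.28 to 1.32 in KO and 0.7497 to 0.9526 in cont. mice, and this difference matters for the direction of the results, as given below.

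Complex II (succinate dehydrogenase) oxidizes succinate and passes electrons to coenzyme Q, complex III hands them to cytochrome c, and complex IV (cytochrome c oxidase) gives them to oxygen. Complexes III and IV pump protons across the inner mitochondrial membrane, and complex V (ATP synthase) uses the return flow to make ATP. All of complex II is encoded in the nucleus, whereas the other complexes join nuclear subunits with some made from the mitochondrial genome, whose genes are not among the rows analysed here. Hepatocytes are rich in mitochondria. The nuclear respiratory factors NRF1 and GABP and the factor YY1 are known to bind promoters of many of these genes.

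To show what such a promoter looks like, 5 are given over the 120 bases before the transcription start (RefSeq, GRCm38.p6), 1 or 2 for each complex. These are the promoters with a GABP (ETS family) motif in that stretch and at most 30 annotated gene bases in the window. All 5 genes lie on the minus strand and are written 5′ to 3′ in the direction of transcription, and the capitals mark the motif CCGGAAG or its reverse complement CTTCCGG. The stretches are chr9:50603850-50603969 for Sdhd, chr10:80406822-80406941 for Uqcr11, chr4:116075071-116075190 for Uqcrh, chr5:115348959-115349078 for Cox6a1 and chr2:174464102-174464221 for Atp5e.
Sdhd: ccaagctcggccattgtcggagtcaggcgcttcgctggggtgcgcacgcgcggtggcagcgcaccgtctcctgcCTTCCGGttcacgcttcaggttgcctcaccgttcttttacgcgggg
Uqcr11: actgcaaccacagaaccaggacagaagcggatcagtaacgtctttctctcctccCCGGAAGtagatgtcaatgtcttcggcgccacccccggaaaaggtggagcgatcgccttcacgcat
Uqcrh: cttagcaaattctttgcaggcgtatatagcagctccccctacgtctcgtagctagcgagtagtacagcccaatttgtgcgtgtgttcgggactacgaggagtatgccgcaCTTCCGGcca
Cox6a1: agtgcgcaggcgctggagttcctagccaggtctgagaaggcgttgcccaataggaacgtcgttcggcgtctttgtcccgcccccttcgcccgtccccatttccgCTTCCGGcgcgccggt
Atp5e: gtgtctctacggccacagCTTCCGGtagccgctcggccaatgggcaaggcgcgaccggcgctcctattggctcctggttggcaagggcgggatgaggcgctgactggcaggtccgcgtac

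RefSeq promoters of 300 bases (250 before to 50 after the start) were found for 35 of the 47 genes. The GABP motif stood in 11 of the 35 (31.4%), against 8.86% of all 32851 promoters of that length. The NRF1 motif, GCGCATGC on either strand, stood in 7 (20%, against 2.71% of all), and the YY1 motif, AAGATGG on either strand, in 3 (8.57%, against 6.34%). At least 1 of the 3 motifs was present in 16 (45.7%, against 16.6%). NRF1's letters nearly read the same on both strands, so that 1 site can match in both directions. A match shows only that these letters are there, and binding was not measured. Among the 18 genes with a promoter that were called higher in KO;T352A than in KO (below), 7 held the GABP motif, as did 4 of the 15 tested and not called higher. No promoter was found in the table for Sdhc, Cyc1, Uqcrb, Uqcrc2, Uqcrq, Cox4i1, Cox4i2, Cox6a2, Cox6c, Cox8c, Atp5a1 and Atp5s.

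Loss of Atg7 was compared with cont. first. A gene was called when its false discovery rate (FDR) was under 0.05 in edgeR's quasi-likelihood test and its fold change over 1.5. In KO livers 19 of the 42 subunit genes were lower than in cont., beside 22.1% of all genes tested. A single one, Cox6b2, was higher, beside 21.6% of all. The 19 were Sdhb of complex II, Cyc1, Uqcr11, Uqcrb and Uqcrq of complex III, Cox4i1, Cox5b, Cox6a1, Cox6b1, Cox6c, Cox7b and Cox7c of complex IV, and Atp5d, Atp5e, Atp5g1, Atp5h, Atp5j, Atp5j2 and Atp5k of complex V. The median log2 fold change of the 42 was -0.62, beside -0.03 over all genes tested, and 39 of the 42 values were negative. Every KO mouse lay below every cont. mouse for 27 of the 42, which 26.3% of all genes tested did.

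The direction rests on the scaling. The subunit genes together took 0.9275% to 1.12% of all counts in cont. and 0.9477% to 1.03% in KO mice, so that their share of the library was in the same range. With total counts and no composition scaling, an alternative added after seeing the data, 1 of the 42 (Uqcrq) was called lower and 3 (Cox6b2, Cox7a2l and Sdhd) higher, beside 7.92% and 42.6% of all genes tested. The median of the 42 was then -0.025 and that of all genes 0.55. Relative to the median of all genes, the subunit genes differed by -0.59 under TMM and by -0.57 under total counts. A change of scaling shifts all log2 fold changes by nearly the same amount, so that these values had to be close. Lower and higher are therefore meant relative to the typical gene.

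The p62 T352A exchange was then compared within the KO background. In KO;T352A livers 22 of the 42 were higher than in KO, where 24.7% of all genes tested were, and 1 (Cox7a2l) was lower, where 26.2% of all were. These 22 were Sdhb, Uqcr10, Uqcr11, Uqcrb, Uqcrfs1, Uqcrq, Cox4i1, Cox5b, Cox6a1, Cox6b1, Cox6c, Cox7a1, Cox7b, Cox7c, Atp5d, Atp5e, Atp5g1, Atp5h, Atp5j, Atp5j2, Atp5k and Atp5o. The call of Uqcr10 held in 8 of 14 other settings of the fit and in 5 of the 9 fits without 1 mouse. The median log2 fold change over all 42 was 0.72, beside 0.00 over all genes. For 31 of the 42 every KO;T352A mouse lay above every KO mouse, which 36.4% of all genes tested did. Under total counts 15 were called higher and 7 lower, beside 9.64% and 44.1% of all genes tested. The subunit genes then differed from the median of all genes by 0.70, against 0.71 under TMM, values that again had to be close. Both comparisons use the same 3 KO mice, so that a low value there enters both.

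Against cont., 6 of the 42 were higher in KO;T352A livers, where 6.25% of all genes tested were, and 0 were lower in edgeR's test, where 5.34% of all were. At an unadjusted p under 0.05, edgeR had 2 of the 42 lower and 14 higher. DESeq2 also called 6 higher and 0 lower, beside 7.43% and 8.59% of all genes tested. The 6 were Uqcrq, Cox6b1, Cox6c, Cox7a1, Cox7c and Atp5e. The median over the 42 was 0.20, beside 0.00 over all genes. For 13 of the 42 the 3 mice lay above all cont. mice, which 15.5% of all genes tested did. The number of calls moved with single mice. It was 0 without cont. mouse 2, 8 without cont. mouse 3, between 1 and 3 without any 1 of the 6 mice with Cre, and 6 without cont. mouse 1. The share of all genes called higher moved too. It was 2.19% without cont. mouse 2, 5.66% without cont. mouse 3 and 10.7% without cont. mouse 1. Without KO mouse 1, 2 or 3 it was 2.83%, 2.68% and 2.66%, and without KO;T352A mouse 1 3.16%.

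**Figure D1:**
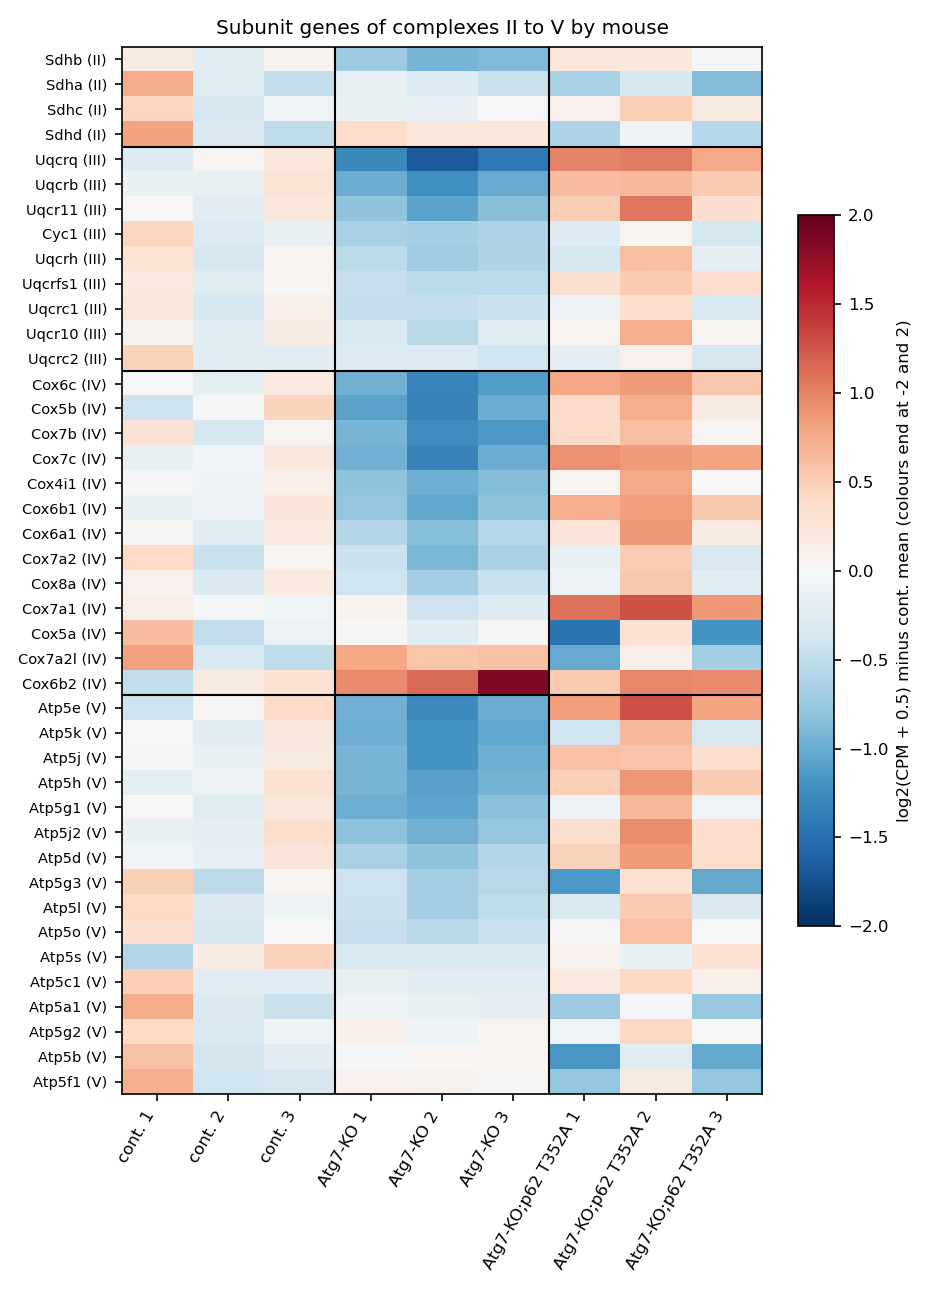
Each row is 1 of the 42 tested subunit genes, grouped by complex, and each column 1 of the 9 mice. Colours give the log2 of normalized CPM plus 0.5 minus the mean of the cont. mice and end at -2 and 2. Most rows are below the cont. mean in the 3 KO columns, and rows such as Uqcrq, Cox7c and Atp5e are above it in all 3 KO;T352A columns.

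Markers of several cell types also differed between the genotypes, and the members of a list did not always move together. The summed level of 6 hepatocyte markers was 71570 to 121700 CPM in cont., 35160 to 37290 in KO and 109800 to 124600 in KO;T352A mice, and 6 of 6 were called lower in KO. Alb made up most of this sum, with means of 62570, 26110 and 79150 CPM. In KO;T352A against KO 5 of 6 were called higher. Cps1 was not, with means of 3218, 1089 and 1432 CPM, and it was called lower against cont. The sum of 6 cholangiocyte markers was 33.4 to 51.3 CPM in cont., 826 to 1023 in KO and 181 to 266 in KO;T352A mice, with 5 of 6 called higher in KO. Spp1 made up most of this sum, with means of 33.8, 871 and 172 CPM, and the other 5 had means of at most 4.87 CPM in cont., 25.8 in KO and 30.8 in KO;T352A mice. Macrophage markers (6 genes) summed to 267 to 346, 762 to 835 and 177 to 334 CPM, and stellate cell markers (6 genes) to 196 to 247, 775 to 928 and 300 to 523 CPM, each with 5 of 6 called higher in KO. Of the stellate cell markers 4 of 6 were called lower in KO;T352A against KO, but Dcn had means of 162, 285 and 283 CPM. Endothelial markers summed to 254 to 318, 259 to 270 and 135 to 165 CPM, leukocyte markers to 14.1 to 32.0, 60.4 to 66.7 and 22.4 to 26.6 CPM, and red blood cell markers to 518 to 1118, 314 to 378 and 558 to 891 CPM. In KO 1 endothelial marker was called lower and 3 higher. Hba-a1 had means of 72.3, 192 and 0.35 CPM, and Hba-a2 of 555, 117 and 621. The part of these cell types in the subunit genes' levels was not tested. In bulk RNA, fewer cells of a type and less RNA per cell cannot be told apart.

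Complex by complex, the median log2 fold change in KO against cont. was -0.26 in complex II, -0.63 in complex III, -0.69 in complex IV and -0.59 in complex V. In KO;T352A against KO the medians were 0.02, 0.70, 1.20 and 0.65 in the same order, and against cont. -0.20, 0.30, 0.40 and 0.14. The sign of the complex II median turned when cont. mouse 1 was left out, to 0.094 in KO against cont. and to 0.10 in KO;T352A against cont. Without KO;T352A mouse 2 the medians against cont. were 0.026 in complex III, 0.20 in complex IV and -0.048 in complex V, and those against KO were -0.11 in complex II and 0.40 in complex III. Without cont. mouse 2 the medians of KO;T352A against cont. were 0.13 in complex III and -0.016 in complex V. Summed CPM of complex III genes were 2239 ± 239 in cont., 1284 ± 70.8 in KO and 3059 ± 436 in KO;T352A mice (SD, n = 3). Those of complex IV were 3437 ± 435, 1985 ± 201 and 4614 ± 884, and those of complex V 5016 ± 1056, 3616 ± 126 and 5136 ± 1355. Within the KO;T352A group mouse 2 was the highest for every complex.

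**Figure D2:**
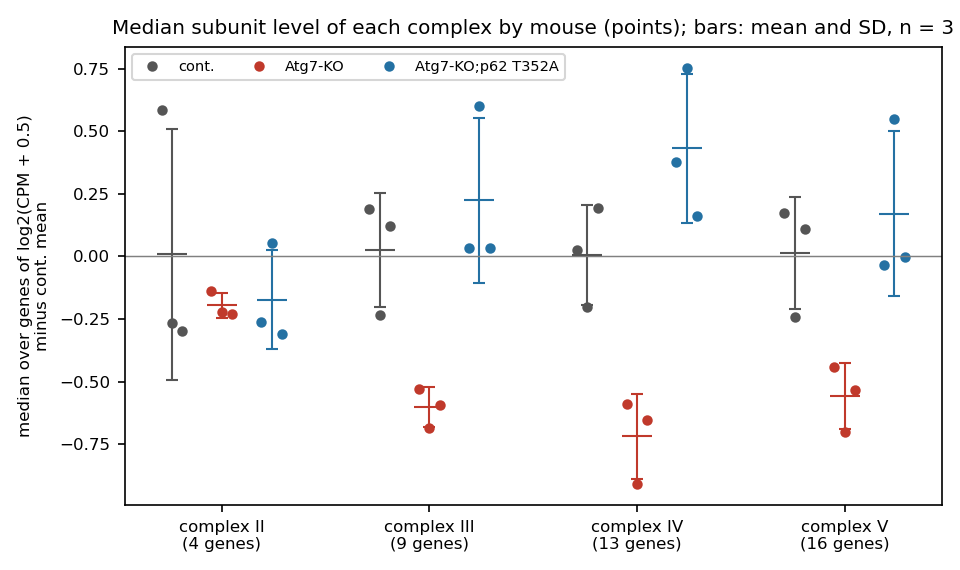
Points are mice, placed by the median over a complex's tested genes of log2 normalized CPM relative to the cont. mean, with the mean and SD of each genotype (n = 3). The KO mice lie between -0.91 and -0.44 in complexes III, IV and V and between -0.23 and -0.14 in complex II.

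In complex II only Sdhb, the iron-sulfur subunit (chr4:140961203-140979193, mm10), passed the test. Sdhb was 293, 224 and 274 CPM in cont. mice 1, 2 and 3, 157, 138 and 141 in KO, and 307, 304 and 254 in KO;T352A mice. The KO mice lay below all others, and the other 2 genotypes overlapped. The log2 fold change was -0.86 ± 0.18 in KO against cont. (edgeR adjusted p = 0.00385) and 0.99 ± 0.18 in KO;T352A against KO (adjusted p = 0.00152).

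Sdha, the flavoprotein that holds the succinate site, was 573, 287 and 241 CPM in cont., 308, 283 and 251 in KO and 218, 268 and 188 in KO;T352A mice. Cont. mouse 1 was far above the rest, and the genotypes overlapped. Sdhc and Sdhd form the membrane anchor that binds coenzyme Q. Sdhd was 260, 122 and 104 CPM in cont., 192, 174 and 174 in KO and 97.3, 138 and 99.9 in KO;T352A mice, all 3 of these below the KO mice, with a log2 fold change of -0.69 ± 0.32 (edgeR adjusted p = 0.0979). Sdhc was 246, 145 and 171 CPM, then 167, 162 and 181, then 194, 254 and 207. For these 3 genes no comparison passed the test, and the log2 fold changes lay between -0.71 and 0.36.

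In complex III all 9 genes were lower in every KO than in every cont. mouse, which 26.3% of all genes tested were. Of the 9, 4 passed the test. Among the 5 small accessory subunits (Uqcr10, Uqcr11, Uqcrb, Uqcrh and Uqcrq) 3 fell in KO and 4 rose in KO;T352A against KO, and the medians over the 5 were -0.92 and 1.58. Among the 4 core and catalytic subunits (Cyc1, Uqcrc1, Uqcrc2 and Uqcrfs1) 1 fell and 1 rose, and the medians over the 4 were -0.50 and 0.47. The difference between these subgroups was not tested.

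Uqcrq, subunit VIII of the complex (chr11:53427922-53430831), had the largest fall of the 42 genes and also the largest rise. It was 480, 584 and 675 CPM in cont., 234, 181 and 213 in KO and 1143, 1179 and 968 in KO;T352A mice, and none of the 3 genotypes overlapped. It was 2.77-fold lower in KO than in cont. (log2 fold change -1.47 ± 0.20, edgeR adjusted p = 0.000491) and 5.24-fold higher in KO;T352A than in KO (2.39 ± 0.21, adjusted p = 5.8e-05). Against cont. the value was 0.92 ± 0.20 (edgeR adjusted p = 0.0218). Uqcrq was also the only one of the 42 called lower in KO under total counts.

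Uqcrb, which contributes to the coenzyme Q site region, was 238, 236 and 315 CPM in cont., 131, 111 and 129 in KO and 402, 407 and 376 in KO;T352A mice, again without overlap. Its log2 fold change was -1.09 ± 0.18 in KO (edgeR adjusted p = 0.00126). Uqcr11, a small subunit near the iron-sulfur protein, was 203, 172 and 237 CPM in cont., 116, 95.7 and 112 in KO and 286, 423 and 257 in KO;T352A mice. It was lower in all KO mice than in any other mouse. Cyc1, cytochrome c1, which hands electrons to cytochrome c, was 252, 156 and 169 CPM in cont. and 120, 117 and 122 in KO (log2 fold change -0.69 ± 0.21, edgeR adjusted p = 0.0256). This call held in 8 of 14 other settings of the fit and in 5 of the 9 fits without 1 mouse. In KO;T352A mice Cyc1 was 157, 192 and 147 CPM. These mice lay above KO and within the cont. range but for mouse 3, without passing the test against either.

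Uqcrc2, a core protein, differed least in the complex, with a log2 fold change of -0.35 ± 0.23 in KO (edgeR adjusted p = 0.223). It was 318, 197 and 197 CPM in cont., 190, 192 and 174 in KO and 203, 245 and 182 in KO;T352A mice. Cont. mouse 1 was the only clearly higher one. The Rieske iron-sulfur protein Uqcrfs1 had an adjusted p of 0.0316 in edgeR's test in KO but a fold change under 1.5, and it rose by 0.90 ± 0.17 on the log2 scale in KO;T352A against KO (adjusted p = 0.00201).

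The widely expressed isoforms of complex IV surround the catalytic core, which is made from the mitochondrial genome. Of these 10, 7 fell in KO (beside 22.1% of all genes tested), and the median log2 fold change over the 10 was -0.89. In KO;T352A against KO 7 rose (beside 24.7% of all genes tested), with a median over the 10 of 1.33. Cox5a, Cox7a2 and Cox8a passed in neither.

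Cox5b, the zinc-binding subunit (chr1:36691449-36693681), had the lowest log2 fold change of the complex in KO against cont. It was 253, 334 and 461 CPM in cont., 162, 134 and 171 in KO and 441, 559 and 380 in KO;T352A mice. The KO mice lay below all others (log2 fold change -1.17 ± 0.25, edgeR adjusted p = 0.00503). Cox6c, a small membrane subunit, was 355, 307 and 404 CPM, then 181, 140 and 162, then 605, 640 and 515, in the same order of genotypes. Its 3 genotypes did not overlap, with log2 fold changes of -1.14 ± 0.19 in KO (edgeR adjusted p = 0.00133) and 0.72 ± 0.19 in KO;T352A against cont. (adjusted p = 0.0382).

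Cox7c, a membrane subunit (chr13:86044816-86046904), had the largest rise of complex IV in KO;T352A against KO. It was 397, 424 and 509 CPM in cont., 227, 175 and 223 in KO and 832, 798 and 762 in KO;T352A mice. None of the genotypes overlapped, and the rise was 1.94 ± 0.19 on the log2 scale (edgeR adjusted p = 8.71e-05). Of the 75-base stretches of Cox7c transcripts 50.4% also occur in other genes, so that its reads may be split with these.

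Cox4i1, the widely expressed form of a regulatory subunit that binds ATP, was 482, 457 and 542 CPM in cont., 281, 251 and 269 in KO and 511, 831 and 493 in KO;T352A mice, and Cox4i2, its oxygen-regulated form, was under the filter. Cox6a1 was 457, 384 and 516 CPM, then 298, 248 and 303, then 536, 823 and 503. Its call in KO (log2 fold change -0.68 ± 0.23, edgeR adjusted p = 0.0384) is close to the threshold. Cox6b1, which bridges the monomers of the dimer on the side facing cytochrome c, was 286, 289 and 372 CPM in cont., 183, 152 and 178 in KO and 520, 557 and 456 in KO;T352A mice, without overlap.

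Cox7b, needed for assembly of the complex, was 312, 200 and 264 CPM, then 134, 108 and 115, then 331, 386 and 263. Its log2 fold change in KO was -1.12 ± 0.22 (edgeR adjusted p = 0.00325). Cox8a was 343, 266 and 373 CPM in cont., 244, 199 and 239 in KO and 300, 469 and 273 in KO;T352A mice, and Cox7a2 was 218, 122 and 172, then 123, 88.1 and 105, then 149, 236 and 132. Cox5a, which binds a thyroid hormone metabolite, was spread widely within KO;T352A, at 65.3, 221 and 78.5 CPM, around 279, 128 and 166 in cont. and 184, 156 and 176 in KO. Without mouse 2 of that genotype Cox5a was called lower against both other genotypes.

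The isoforms named for other tissues were low. Cox7a1, the heart and muscle form (chr7:30184144-30186078), was 2.46, 2.18 and 2.09 CPM in cont., 2.37, 1.56 and 1.79 in KO and 5.28, 6.09 and 4.50 in KO;T352A mice. The last 3 lay above the other 6, with log2 fold changes of 1.47 ± 0.25 against KO (edgeR adjusted p = 0.00106) and 1.23 ± 0.25 against cont. (adjusted p = 0.0175). The 6 markers of striated muscle summed to 0.229 to 5.30 CPM in cont., 0.387 to 0.575 in KO and 0.0701 to 0.392 in KO;T352A mice. Cox6b2, the testis form, was 0.172, 0.567 and 0.659 CPM in cont. (3, 6 and 6 counts), 1.31, 1.56 and 2.90 in KO (27, 38 and 68 counts) and 0.857, 1.33 and 1.31 in KO;T352A mice (12, 19 and 20 counts). It was above every cont. mouse in all KO mice, with a log2 fold change of 2.14 ± 0.52 (edgeR adjusted p = 0.00859) that rests on these few counts.

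Cox7a2l, which is counted here by its name, is known as a factor for joining complexes III and IV into supercomplexes. Whether it does so in these mice was not measured. Cox7a2l was 125.0, 56.9 and 49.8 CPM in cont., 121, 105 and 107 in KO and 34.8, 75.9 and 44.0 in KO;T352A mice. All 3 KO;T352A mice lay below the KO mice (log2 fold change -1.11 ± 0.38, edgeR adjusted p = 0.0329). The call held in 4 of the 9 fits without 1 mouse.

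**Figure D3:**
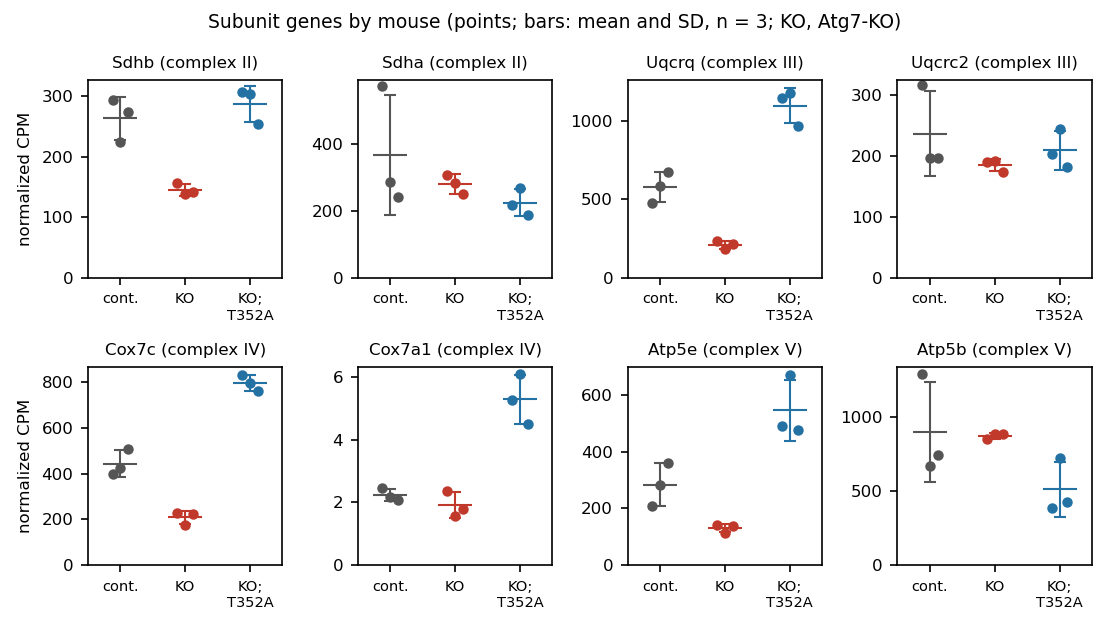
Normalized CPM (vertical axis, from 0) of Sdhb, Sdha, Uqcrq, Uqcrc2, Cox7c, Cox7a1, Atp5e and Atp5b in each mouse, by genotype, with the mean and SD (n = 3). For Uqcrq, Cox7c and Atp5e the 3 genotypes separate, for Sdha they overlap, and for Uqcrc2 the KO mice lie just below the cont. mice while KO;T352A overlaps with both.

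In complex V 7 of 16 genes fell in KO and 8 rose in KO;T352A against KO, beside 22.1% and 24.7% of all genes tested. Its parts hold few genes each, and differences between the parts were not tested. By part of the enzyme, 2 of 5 subunits of the F1 head and central stalk fell, 1 of 3 genes of the c ring, 2 of 4 of the peripheral stalk and 2 of 3 membrane accessory subunits (Atp5j2 and Atp5k, but not Atp5l). Coupling factor B, Atp5s, was low at 5.56 to 11.9 CPM and passed in no comparison.

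Within the head, the catalytic beta subunit Atp5b (chr10:128083273-128090391) and the epsilon subunit Atp5e of the central stalk (chr2:174461072-174464105) are given side by side. Atp5b was 1290, 668 and 743 CPM in cont., 852, 887 and 883 in KO and 384, 727 and 426 in KO;T352A mice. The last 3 were below the KO mice, with a log2 fold change of -0.77 ± 0.31 that missed the threshold (edgeR adjusted p = 0.0614). It was called lower under DESeq2, upper-quartile scaling, total counts, the filter of at least 10 counts and the offset for length and GC content (below), and without cont. mouse 1 or KO;T352A mouse 2. Atp5e was 209, 281 and 362 CPM in cont., 141, 114 and 139 in KO and 493, 672 and 479 in KO;T352A mice, with no overlap. It fell by 1.11 ± 0.24 on the log2 scale in KO (edgeR adjusted p = 0.00503) and was 4.17-fold higher in KO;T352A than in KO (adjusted p = 0.000215). The alpha subunit Atp5a1, 1024, 502 and 451 CPM in cont., 575, 553 and 535 in KO and 373, 603 and 364 in KO;T352A mice, and the gamma subunit Atp5c1 passed in no comparison. The delta subunit Atp5d had a log2 fold change of -0.69 ± 0.20 in KO (edgeR adjusted p = 0.0188). This call held in 9 of 14 other settings of the fit and in 5 of the 9 fits without 1 mouse.

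In the peripheral stalk, which holds the head still against the turning rotor, subunit d (Atp5h) was 227, 237 and 316 CPM in cont., 134, 120 and 134 in KO and 357, 474 and 369 in KO;T352A mice. The genotypes did not overlap, and the log2 fold change was -1.01 ± 0.20 in KO (edgeR adjusted p = 0.00309). Of its 75-base stretches 40.3% also occur in other genes. Subunit F6 (Atp5j) had a log2 fold change of -1.03 ± 0.18 (edgeR adjusted p = 0.00144), and subunit b (Atp5f1) one of -0.04. Atp5o, the subunit that joins stalk and head, rose by 0.72 ± 0.23 on the log2 scale in KO;T352A against KO (edgeR adjusted p = 0.0238). This call held in 9 of 14 other settings of the fit and in 5 of the 9 fits without 1 mouse. Atp5k, subunit e, which shapes dimers of the enzyme, was 139, 120 and 164 CPM, then 71.3, 60.5 and 68.1, then 106, 220 and 112. Its KO mice were below all others.

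The proton-carrying c ring is made from 3 genes with different import signals and the same mature protein. Atp5g1 was 332, 278 and 385 CPM in cont., 166, 159 and 184 in KO and 304, 519 and 309 in KO;T352A mice. KO mice were below all others (log2 fold change -0.97 ± 0.24, edgeR adjusted p = 0.00997). Atp5g2 was 173, 107 and 122 CPM, then 140, 122 and 135, then 123, 174 and 130, with a log2 fold change of -0.02. Atp5g3 was 597, 298 and 444 CPM, then 321, 264 and 293, then 193, 524 and 210, and passed in no comparison.

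Counted per kilobase of transcript, Atp5g1 made up 38.2 ± 6.04% of the 3 genes in cont., 28.6 ± 1.82% in KO and 46.2 ± 2.36% in KO;T352A mice (SD, n = 3). The KO mice, at 26.6%, 29.2% and 30.1%, lay below every cont. mouse, at 31.2%, 41.4% and 41.8%. Of the stretches of Atp5g2 100% and of those of Atp5g1 59.6% also occur in other genes (Gm10175 and Gm10231 for Atp5g2, Gm10039 and Gm12337 for Atp5g1), so that these levels and shares are uncertain.

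**Figure D4:**
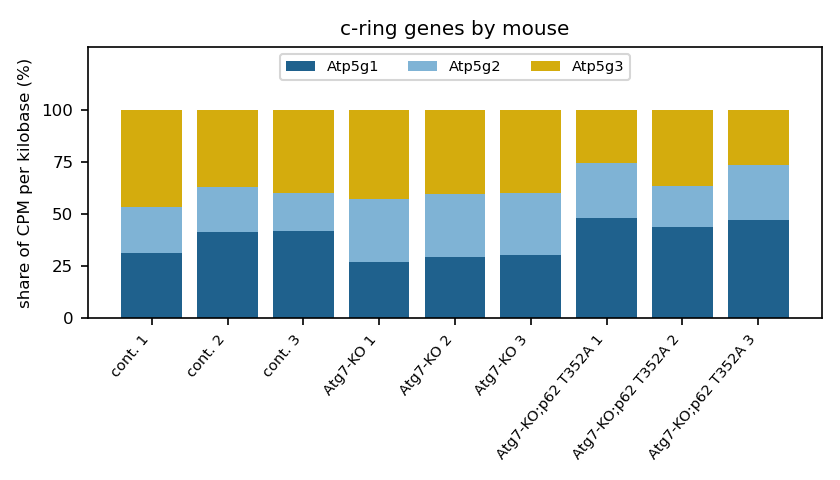
Stacked bars give, for each mouse, the percent of c ring transcripts (CPM per kilobase, vertical axis from 0) from Atp5g1, Atp5g2 and Atp5g3. Atp5g1 holds 26.6% to 30.1% in KO mice and 43.5% to 48.1% in KO;T352A mice.

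The level of a gene can be compared with another only per kilobase. On that scale Uqcrq was the highest of the 42 in each genotype, with means of 1431 CPM per kilobase in cont., 517 in KO and 2708 in KO;T352A mice. Cox7c followed in cont. at 821, and was 386 in KO and 1476 in KO;T352A. Cox7a1 was at 5.71 CPM per kilobase in cont. This order is a description, and neighbours in it were not tested.

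The log2 fold change, with its sign, went with transcript length. The 42 genes are short, with a median length of 730 bases against 2766 over all genes tested. Across the 42, Spearman's rho between length and log2 fold change was 0.39 in KO against cont., -0.53 in KO;T352A against KO and -0.59 in KO;T352A against cont., over genes that share libraries and are not independent. Over the 13773 other genes with a length it was 0.02, -0.17 and -0.30. The 20 subunit genes under 700 bases had medians of -0.79, 1.14 and 0.52 in these comparisons, where 378 other genes of that length had -0.23, 0.75 and 0.59. The 7 subunit genes of 1500 to under 3000 bases, which are Sdha, Cyc1, Uqcrc1, Uqcrc2, Atp5a1, Atp5b and Atp5f1, had medians of -0.35, -0.31 and -0.48, where 5039 other genes had -0.03, 0.06 and 0.06.

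With an offset for length and GC content in the fit, 15 of the 42 remained called lower in KO against cont. (24.1% of all genes tested were), with a median of -0.50. In KO;T352A against KO, 12 of the 42 were called higher (beside 24.3% of all genes tested) and 6 lower (beside 25.7% of all), with a median of 0.21. The share called higher was thus near that of all genes. Against cont., 0 were called in edgeR's test in either direction, where 4.63% of all genes tested were lower and 4.06% higher. The median was -0.24, and at an unadjusted p under 0.05 11 were lower and 0 higher. For that unadjusted cutoff the share over all genes was not computed. DESeq2 was not run with the offset. The genes that lost their call in KO were Cyc1, Uqcr11, Cox6a1 and Atp5d. The 12 called higher were Uqcrb, Uqcrfs1, Uqcrq, Cox5b, Cox6b1, Cox6c, Cox7b, Cox7c, Atp5e, Atp5h, Atp5j and Atp5j2, and the 6 called lower were Sdhd, Cox5a, Cox6b2, Cox7a2l, Atp5b and Atp5g2.

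**Figure D5:**
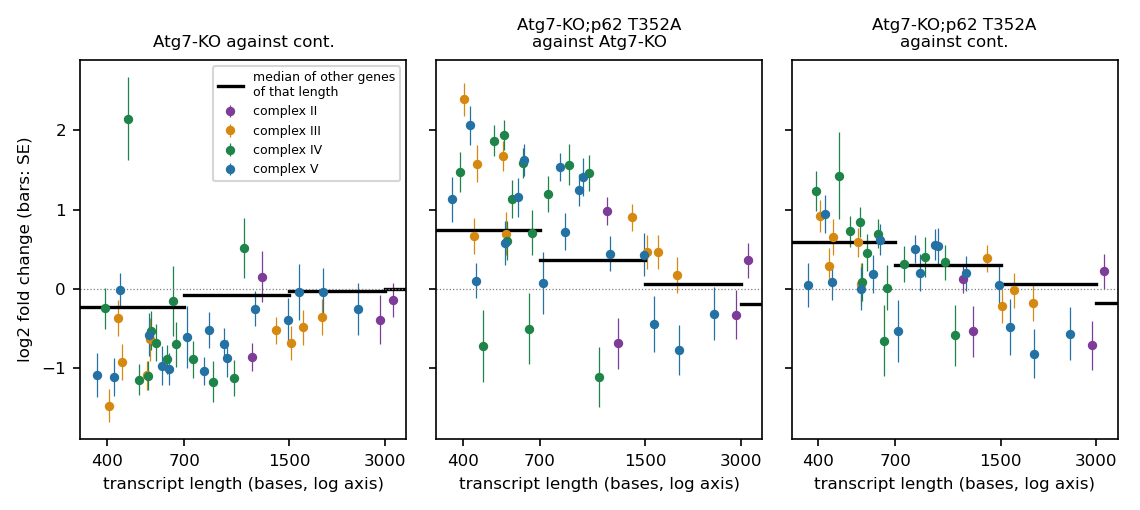
Log2 fold change (vertical axis) against transcript length in bases (log axis) for the 42 genes in 3 comparisons, with the median of all other genes in each length band as lines. In KO;T352A against KO the 20 subunit genes under 700 bases have a median of 1.14 and the other genes under 700 bases one of 0.75.

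Other genes of respiration were counted beside the subunits. Their counts stand beside the shares over all genes tested given above, 22.1% lower and 21.6% higher in KO, and 24.7% higher and 26.2% lower in KO;T352A against KO. Of 37 complex I subunit genes, 22 were lower in KO (median log2 fold change -0.69), 29 higher in KO;T352A against KO (median 1.22) and 7 higher against cont. Of 78 genes for cytosolic ribosomal proteins, which are also short, 0 were lower in KO in edgeR's test (also 0 at an unadjusted p under 0.05, and 0 in DESeq2) and 4 higher (median 0.18), and 23 were higher and 4 lower in KO;T352A against KO. With the offset for length and GC content the last counts turned, to 2 higher and 22 lower.

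Of 22 complex IV assembly factors tested, 4 (Sco2, Cox10, Cox16 and Cox20) fell in KO, which is 18.2% of them, under the share over all genes. In KO;T352A against KO 8 rose and 2 fell. Sco2, a copper chaperone of the complex, was 64.7, 143 and 142 CPM in cont., 15.5, 11.1 and 15.2 in KO and 158, 182 and 150 in KO;T352A mice. The KO mice were far below all others (log2 fold change -3.07 ± 0.31, edgeR adjusted p = 0.000102). Of 6 complex III assembly factors 1 fell, Uqcc3, and of 4 for complex II 1 fell, Sdhaf1. Of 6 genes listed for assembly or inhibition of complex V, Atp5sl fell and Atpif1 rose. Atp5sl stood in this list by its name, and a role of it in complex V is not shown here. Atpif1, which inhibits the reverse, ATP-consuming action of ATP synthase, was 18.4, 22.7 and 44.4 CPM in cont., 86.5, 80.8 and 99.4 in KO and 14.2, 38.7 and 18.1 in KO;T352A mice. It was higher in KO than in any other mouse, with log2 fold changes of 1.65 ± 0.41 (edgeR adjusted p = 0.0098) and, in KO;T352A against KO, -1.91 ± 0.42 (adjusted p = 0.00409).

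Among 18 genes for cytochrome c and coenzyme Q, 5 fell (27.8%, near the share over all genes) and 1 rose in KO. Cytochrome c, Cycs, which carries electrons from complex III to IV, had a log2 fold change of 0.01 ± 0.23 (edgeR adjusted p = 0.971). Of 14 genes of the tricarboxylic acid cycle 1 fell, Idh3g (7.14%). Of 4 ATP and phosphate carriers tested, Slc25a4 and Ucp2 rose in KO, by 1.74 ± 0.26 and 1.93 ± 0.29 on the log2 scale (edgeR adjusted p = 0.000671 and 0.00069). Of 13 genes for the outer membrane and protein import, 1 (Timm44) fell and 1 (Tomm20) rose, 7.69% each and below the shares over all genes.

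Of 16 regulators of mitochondrial genes, 9 fell in KO, 0 rose (also 0 at an unadjusted p under 0.05 in edgeR and 0 in DESeq2), and 10 rose in KO;T352A against KO. Esrra, a nuclear receptor for genes of respiration, was 27.3, 45.2 and 46.0 CPM in cont., 21.6, 21.4 and 21.2 in KO and 53.8, 46.2 and 42.4 in KO;T352A mice. It was lowest in KO, with log2 fold changes of -0.88 ± 0.21 (edgeR adjusted p = 0.00816) and 1.15 ± 0.21 (adjusted p = 0.00181). Ppargc1b, the coactivator PGC-1beta, had the lowest log2 fold change of the 16 in KO, -3.58, and 2.94 in KO;T352A against KO. It was called in both, with means of 22.1, 1.83 and 14.1 CPM in cont., KO and KO;T352A mice. Ppargc1a, the coactivator PGC-1alpha, had -0.80 ± 0.33 in KO (edgeR adjusted p = 0.0715) and 1.00 ± 0.33 in KO;T352A against KO (adjusted p = 0.0268). Nrf1 had -0.52 ± 0.18 (edgeR adjusted p = 0.0357, with a fold change under 1.5) and 0.71 ± 0.17 (adjusted p = 0.00738). Gabpa, the DNA-binding subunit of GABP, was 58.9, 35.0 and 30.9 CPM in cont., 33.3, 32.6 and 29.6 in KO and 22.7, 22.5 and 17.9 in KO;T352A mice, which lay below all others, and it fell against cont. (-0.99 ± 0.24, edgeR adjusted p = 0.0315). Tfam, which packages and transcribes mitochondrial DNA, had log2 fold changes of 0.04, 0.07 and 0.12 in the 3 comparisons and passed in none.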

How the data were processed

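Liver poly(A) RNA of 9 mice was sequenced by the authors as 75-base single-end reads. The submitters' processing notes name Trim Galore, STAR, RSEM and mm10, with versions, annotation and strand setting not given in the sources used here. The values deposited by the authors are expected counts by gene from RSEM, unscaled, in 1 column per mouse. They were rounded to whole numbers. Columns were assigned by genotype and mouse number in the labels.

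Genes were kept by filterByExpr, scaled by TMM and fitted over the 3 genotypes in edgeR 4.0.16 (glmQLFit, glmQLFTest, R 4.3.3) with Benjamini-Hochberg adjustment over all 13922 genes tested. Calls needed both a fold change over 1.5 and an FDR under 0.05, as in the study. Standard errors (SE) came from the quasi-likelihood F statistic. CPM are scaled by TMM. Log2 values by mouse used a pseudocount of 0.5, and PCA a prior count of 2. Levels per kilobase used 1 GENCODE vM21 transcript per gene, and positions are from vM21. Shared sequence was counted in stretches of 75 bases. The edgeR p-values set differences between genotype means against the spread among mice, with 3 per genotype. That spread was pooled over the 3 genotypes and moderated across genes. Counting limits cover counting error only.

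Alternatives were DESeq2 1.42.0, its size factors in edgeR, upper-quartile scaling, other filters, the 20 largest genes left out, the replicate block, a term for low Xist counts, offsets for length and GC content (lowess span 0.3, limma 3.58.1), glmTreat, the FDR alone, leaving out the mice numbered 1, and leaving out single mice. Total counts without composition scaling were added after seeing the data. The edgeR fits were run on simulated data that were not built to mimic the shift in composition between these libraries. These runs do not bear on the choice of scaling. Python 3.11.15 with numpy 2.4.6, pandas 2.3.3 and matplotlib 3.10.9 was used for summaries.

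The genes and lists were chosen with earlier results of these data known. Values by mouse were meant for the lowest and highest members of each complex by fold change (the 2 lowest and 1 highest in KO, the 2 highest in KO;T352A against KO, and the extremes of KO;T352A against cont.), all SDH genes and the isoform sets, and statistics for the 2 lowest and 2 highest genes of each other list and for Ppargc1a, Esrra, Nrf1, Gabpa, Tfam, Cycs and Atpif1. Values of Uqcr11, Uqcrfs1, Atp5a1, Atp5d, Atp5f1, Atp5j and Atp5o were added after they were seen.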

Additional observations from a re-analysis of the deposited data

How the results depend on the processing

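Total counts without composition scaling gave 1 gene lower and 3 higher in KO against cont. (median -0.025), 7 lower and a median of 0.13 in KO;T352A against KO, and medians of 0.35 in complex II and 0.0096 in complex V in KO against cont. and of -0.57 in complex II in KO;T352A against KO. glmTreat gave 9 lower in KO (beside 12.3% of all genes tested), 0 lower in KO;T352A against KO (18.4% of all) and 0 higher against cont. (0.725% of all). At least 10 counts in every mouse gave 0 higher in KO (beside 19.2% of all genes tested). It gave 2 lower in KO;T352A against KO, as DESeq2 (2) and upper-quartile scaling (2) did. Of all genes tested 24.5%, 27.6% and 29.7% were lower in these 3 fits. Without the mice numbered 1, 3 were higher in KO (beside 27.1% of all genes tested), and complex II medians were 0.065 in KO and 0.12 in KO;T352A against cont. The complex II median in KO;T352A against KO was -0.0076 with DESeq2 or its size factors, -0.12 with upper-quartile scaling, -0.0027 with no filter and -0.057 with at least 10 counts.

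The offset for length and GC content gave 12 higher, 6 lower and a median of 0.21 in KO;T352A against KO, and 0 higher and a median of -0.24 against cont., with -0.27 in complex III and -0.35 in complex V. Atp5k turned to -0.027 in KO;T352A against KO. With the replicate block added to the offset these were 12, 5, 0.20, 0, -0.22, -0.26, -0.34 and -0.038. Of all genes tested 23.7% were then higher and 25.6% lower in KO;T352A against KO, and 2.97% higher against cont.

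Mouse numbers do not pair the mice by label, and deviations of same-numbered mice correlated between -0.20 and 0.32. The replicate block alone gave 18 lower and 1 higher, 21 higher and 1 lower, and 3 higher and 0 lower in the 3 comparisons (medians -0.63, 0.72 and 0.22). The shares of all genes tested, in the same order, were 19.9% and 21.5%, 24.2% and 26.1%, and 3.71% and 3.38%.

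With 1 mouse left out, KO against cont. gave 13 to 23 lower, 1 to 3 higher and a median of -0.85 to -0.48. The 13 lower, without KO mouse 2, stood beside 15.4% of all genes tested, and the 23, without cont. mouse 2, beside 19.3%. KO;T352A against KO gave 0 to 3 lower and 20 to 25 higher, and KO;T352A against cont. 0 to 1 lower and 0 to 8 higher. In KO;T352A against KO, 25 were higher without cont. mouse 1 (beside 28.2% of all genes) and 20 without KO mouse 2 (beside 18.9%). Complex II medians ranged from -0.51 to 0.094, from -0.11 to 0.10 and from -0.42 to 0.10, and the complex V median against cont. from -0.048 to 0.28. Of the alternatives for single genes and lists, 5127 kept direction and call, 117 gained a call, 262 lost it, 104 moved and 21 turned. Depth limits the values of Cox6b2, which had 3 to 6 counts in cont. mice, and left 5 isoforms untested.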
